A study of Mus musculus with 15 samples.

Results

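The fibroblast growth factor (FGF) ligand genes Fgf1, Fgf2, Fgf7, Fgf10 and Fgf18 and the FGF receptor genes Fgfr1, Fgfr2, Fgfr3 and Fgfr4 were followed over 8 conditions of cultured mouse cells. These 9 genes were taken by symbol from the 44674 genes of the count table, and all 9 were found. Bulk RNA-seq was available for 15 libraries, 2 for each of 7 conditions and 1 for the last. By the study's methods, whole bone marrow (WBM) of tamoxifen-injected Tie2-CreERT2;Rosa26-tdTomato mice was grown in endothelial medium, and the tdTomato+ CD45- cells were sorted by the surface sialomucin endomucin (Emcn) into P0 Emcn+ and P0 Emcn- BMECs, the study's name for bone marrow endothelial cells. The Lung condition came from lung cultures in the same medium and was Emcn- by the study's results. A dish usually held the cells of 1 mouse, and the mice, those of the BM MSC included, were 4 to 6 months old by the methods. Emcn- marrow cells were also passaged and collected at P1, P2, P3 and P4, with 1 library at P4. BM MSC, mesenchymal stromal cells, were tdTomato+ CD45- cells of Osx-Cre;Rosa26-tdTomato marrow grown in MesenCult, a stromal medium. The labels give every library the genotype WT. In the Tie2 mice a promoter of endothelial cells drives a Cre that needs tamoxifen, and in the Osx mice a promoter of osteolineage cells drives a Cre that does not, so tdTomato marks cells that used these promoters and their descendants. The endothelial medium held added FGF2 protein and heparin by the methods, which all conditions except BM MSC shared.

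FGF ligands are secreted proteins that bind heparan sulfate chains and tyrosine kinase receptors together. Bound receptors phosphorylate the docking protein FRS2, which leads to RAS and ERK signalling, and ERK in turn raises inhibitors of the pathway such as the Sprouty proteins. FGF2 is a classic mitogen for endothelial and mesenchymal cells, whereas FGF7 and FGF10 are made by mesenchyme and act mainly on epithelium through a splice form of FGFR2.

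The labelled cell types were checked against marker genes. Read counts scaled to library total (CPM), summed over 10 endothelial genes, were 10400 and 12300 in P0 Emcn+ and between 43.3 and 822 in every other library. Summed over 8 fibroblast and mesenchymal genes, they were 235 and 313 CPM in P0 Emcn+, 16300 and 21400 in P0 Emcn-, 13100 and 14100 in Lung, 11200 and 19700 in BM MSC, and 4390 to 6770 at P1 to P4. Among the 10 endothelial genes Vwf went the other way in Lung, at 21.9 to 201 CPM against 4.82 to 6.72 in P0 Emcn+. Mean Tek was 35.2 CPM at P1 and mean Kdr 23.3 at P4, against 146 and 438 in P0 Emcn+. The libraries labelled Emcn- or Lung therefore carried low summed endothelial and high summed mesenchymal marker RNA, against the endothelial identity the study gives them. They are called here by their labels only. By staining, the study found VE-cadherin and CD31 protein on the colony-forming cells of P0 cultures, which lacked Emcn. By flow cytometry it found CD31, VE-cadherin and the receptor Flk-1 on the tdTomato+ cells of P0 cultures, both Emcn fractions together. It also reports that P0 Emcn- cells were enriched in genes of mesenchymal cells. Elsewhere it states that genes high in MSC were not expressed by BMECs or lung endothelial cells. Cdh5, a junction protein that defines endothelium, differed between replicates, at 119 and 6.35 CPM for the P0 Emcn- pair, and at 7.86 and 156 for BM MSC. At P3 it had 2 and 5 counts. Emcn RNA was at 631 and 798 CPM in P0 Emcn+, 12.7 and 2.52 in P0 Emcn- and 32.6 and 125 in Lung. It was at 1.23 and 26.7 CPM in BM MSC and at most 3.68 at P1 to P4. Macrophage genes summed to 542 and 548 CPM in P0 Emcn+, 189 and 228 in P0 Emcn-, and 11.6 to 223 elsewhere. The 5 epithelial genes summed to at most 0.386 CPM except in Lung, at 2.07 and 10.3. Mural genes summed to 960 and 1190 CPM in BM MSC, mostly Acta2, and at most 156 elsewhere. Osteolineage and stromal genes, mostly Cxcl12, summed to 226 to 4740 CPM. In bulk libraries, fewer cells of a type and less RNA per cell cannot be told apart. The labels give 4 batches. Replicates 1 of the P0 and Lung conditions were batch d and replicates 2 batch a. At P1 to P4 replicates 1 were batch b and replicates 2 batch c, and both BM MSC libraries were batch c. Batches a and d thus held the P0 and Lung libraries alone and b and c the passaged and BM MSC libraries alone, and across these sets the effects of batch and of condition cannot be told apart.

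In the GENCODE M21 annotation of GRCm38, Fgf2 lies at chr3:37348346-37410108 on the plus strand, Fgf7 at chr2:126034658-126091185 on the plus strand, Fgf10 at chr13:118669791-118792115 on the plus strand and Fgf18 at chr11:33117430-33147400 on the minus strand. The receptors lie at chr8:25513654-25575718 for Fgfr1, chr7:130162451-133123350 for Fgfr2, chr5:33721674-33737068 for Fgfr3 and chr13:55152640-55168759 for Fgfr4. All 9 are protein-coding. Exons of Fgf2 overlap Nudt6 on the opposite strand over 640 bases, 9.44% of the Fgf2 exons, and Nudt6 was at 1.12 to 3.12 CPM. Exons of Fgfr2 share 314 bases, 3.04%, with Ctbp2 on the same strand, which was at 31.6 to 75.3 CPM. Exons of Fgfr3 overlap the opposite-strand gene G630022F23Rik, at most 0.14 CPM, over 998 bases. Whether counting used strand is not given in the sources used here.

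The starts of Fgf7, Fgf10 and Fgf18 are shown, as the 250 bases before each start, because these ligand genes had the largest fold changes among the members between the P0 fractions. The sequences are RefSeq's, build GRCm38.p6, 5′ to 3′ on the gene's strand and ending 1 base before the transcript start. RefSeq windows were matched for 7 of the 9 genes. Capitals mark the motif matches found.
Fgf7, chr2:126034408-126034657, plus strand: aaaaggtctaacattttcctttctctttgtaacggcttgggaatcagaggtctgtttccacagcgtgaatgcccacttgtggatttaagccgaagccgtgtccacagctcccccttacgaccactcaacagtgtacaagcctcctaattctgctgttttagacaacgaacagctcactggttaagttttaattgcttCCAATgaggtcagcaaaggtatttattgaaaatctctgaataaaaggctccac
Fgf10, chr13:118714449-118714698, plus strand: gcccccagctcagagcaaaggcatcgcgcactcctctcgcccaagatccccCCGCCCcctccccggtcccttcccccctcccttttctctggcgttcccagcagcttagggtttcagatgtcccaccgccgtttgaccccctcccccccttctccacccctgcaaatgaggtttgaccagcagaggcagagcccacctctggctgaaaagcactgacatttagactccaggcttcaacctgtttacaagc
Fgf18, chr11:33147401-33147650, minus strand: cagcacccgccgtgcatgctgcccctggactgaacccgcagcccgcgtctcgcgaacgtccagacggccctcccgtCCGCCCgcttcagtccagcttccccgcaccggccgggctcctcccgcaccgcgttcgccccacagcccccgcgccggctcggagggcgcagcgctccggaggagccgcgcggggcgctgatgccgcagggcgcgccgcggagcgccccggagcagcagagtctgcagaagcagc
The Fgf10 window precedes RefSeq's start, which lies inside the longer GENCODE gene. GC content was 43.6% for Fgf7, 61.2% for Fgf10 and 77.2% for Fgf18, against a median of 52.4% over 32851 promoter windows. The windows were searched on both strands for 6 motifs. The TATA box was searched as TATAAA, which 12.4% of all windows hold, and the CCAAT box by those letters, held by 33.8%. The GC box was searched as GGGCGG, which 32.7% hold, and the AP-1 site as TGANTCA, which 6.75% hold. The E-box was searched as CACGTG, held by 6.02%, and the RUNX site as TGTGGT, held by 14.0%. Fgf7 held 1 CCAAT box, 53 bases before the start, and Fgf10 and Fgf18 held 1 GC box each, read as CCGCCC on the printed strand. A match is a run of letters and no measured site.

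The plot of member levels shows CPM in every library. Fgf2, the mitogen of the set, was at 0.856 and 1.24 CPM in P0 Emcn+ and at 19.5 and 35.0 in P0 Emcn-. It was at 45.9 and 54.5 in Lung and at 110 and 270 in BM MSC. The P1 libraries held 51.8 and 50.3, those of P2 102 and 91.2, those of P3 147 and 122, and the P4 library 146. P0 Emcn+ was lowest in both libraries, and by their ranges BM MSC overlapped P4, P4 overlapped P3, and P1 overlapped Lung, while the other neighbours in the order did not overlap.

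**Figure D1:**
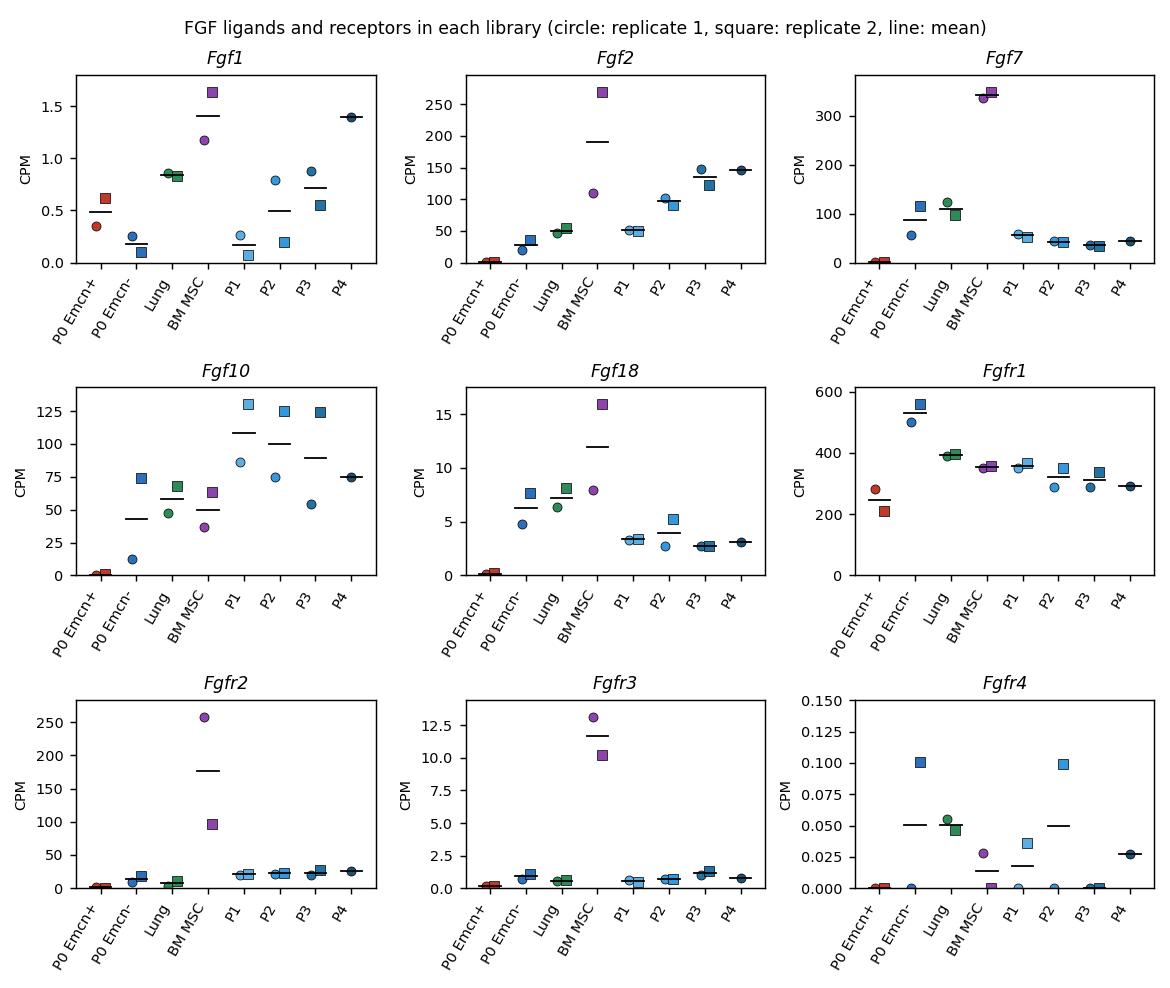
CPM of the 9 genes in each of the 15 libraries, on linear axes that start at 0, with circles for replicate 1, squares for replicate 2 and a line for the mean of the condition. Fgf2, Fgf7, Fgf10 and Fgf18 are lowest in P0 Emcn+, Fgf7, Fgfr2 and Fgfr3 are highest in BM MSC, and Fgfr4 stays at or below 0.101 CPM.

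Fgf7, also called keratinocyte growth factor, was at 1.20 and 1.66 CPM in P0 Emcn+, 57 and 116 in P0 Emcn-, 123 and 96.4 in Lung, and 336 and 349 in BM MSC. The P1 libraries held 58.4 and 52.6, those of P2 43.2 and 41.5, those of P3 35.5 and 34.3, and the P4 library 43.6. BM MSC lay above and P0 Emcn+ below all other libraries. Lung, P0 Emcn- and P1 overlapped in turn.

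Fgf10, the close relative of Fgf7 that shapes lung and limb buds, was at 0.158 and 1.08 CPM in P0 Emcn+, at 12.5 and 74.0 in P0 Emcn-, at 47.8 and 67.7 in Lung and at 36.6 and 63.3 in BM MSC. The P1 libraries held 86.6 and 130, those of P2 75 and 125, those of P3 54.0 and 124, and the P4 library 75. Replicate 2 was the higher library in all 7 replicated conditions. In the order of means, neighbouring conditions overlapped except P4 and Lung, and P0 Emcn- and P0 Emcn+.

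Fgf18, a ligand known from cartilage and bone growth, was at 0.0951 and 0.232 CPM in P0 Emcn+, 4.81 and 7.67 in P0 Emcn-, 6.32 and 8.16 in Lung, and 7.92 and 15.9 in BM MSC. Passaged cells held 2.71 to 5.24 CPM. In the order of means, BM MSC, Lung, P0 Emcn-, P2 and P1 overlapped in turn, and P0 Emcn+ lay below all. Fgf1, the ligand that binds every FGF receptor, was scarce. Its counts were 11 and 16 in P0 Emcn+, 10 and 1 in P0 Emcn-, 31 and 18 in Lung and 42 and 54 in BM MSC, which is 1.18 and 1.64 CPM in the last. The P1 libraries held 9 and 2 counts, those of P2 27 and 6, those of P3 31 and 15, and the P4 library 51. Replicate 1, batch b, was the higher library at each of P1, P2 and P3.

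Fgfr1, the main receptor of mesenchyme, was present throughout, at 283 and 211 CPM in P0 Emcn+, 502 and 558 in P0 Emcn-, 391 and 396 in Lung, and 350 and 357 in BM MSC. The P1 libraries held 351 and 366, those of P2 288 and 352, those of P3 290 and 336, and the P4 library 292. P0 Emcn- lay above and P0 Emcn+ below every other library, while P1, BM MSC, P2, P3 and P4 overlapped in turn. Fgfr2, whose splice forms a count per gene cannot separate, was at 2.00 and 1.04 CPM in P0 Emcn+, 10.0 and 18.7 in P0 Emcn-, 4.06 and 10.6 in Lung, 257 and 96.2 in BM MSC and 20.1 to 27.2 in passaged cells. The BM MSC libraries were both above all others and differed most between replicates. Fgfr3, a receptor that restrains growth of cartilage, was at 13.1 and 10.2 CPM in BM MSC, 0.190 and 0.193 in P0 Emcn+, and 0.466 to 1.33 in the remaining libraries. Fgfr4, best known in liver, had at most 3 counts in a library and 0 in 8 of 15, and 3 counts correspond to 0.0755 to 0.303 CPM, so it was not detectable above this limit and could not be tested.

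Levels can be set between genes only per length, and CPM per kilobase of exon was used for this. Fgfr1 made up 91.8% to 99.4% of the summed receptor CPM per kilobase in all libraries outside BM MSC, and 57.1% and 77.1% in BM MSC. Fgfr2 took most of the rest there, with 40.0% and 19.9%, and Fgfr3 had 2.95% and 3.03%. Among the 5 ligands, Fgf7 had the largest share in P0 Emcn-, 56.3% and 64.4%, and in Lung, BM MSC and P0 Emcn+. Fgf10 held the largest share at P1, 39.8% and 51.7%, and at P2. At P3 the leading ligand was Fgf2 in replicate 1, 46.3%, and Fgf10 in replicate 2, 46.5%, and at P4 it was Fgf2, 39.8%.

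The count ratio of Fgf10 to Fgf7 separated the passaged cells from all others. It was 0.132 and 0.651 in P0 Emcn+, 0.219 and 0.638 in P0 Emcn-, 0.389 and 0.702 in Lung and 0.109 and 0.181 in BM MSC. In P1 libraries the ratio was 1.48 and 2.48, in those of P2 1.74 and 3.00, in those of P3 1.52 and 3.61, and in P4 1.72. Thus Fgf7 counts exceeded Fgf10 counts in all 8 P0, Lung and BM MSC libraries and the reverse held in all 7 passaged ones. Within batch c, the only batch with both kinds, BM MSC read 0.109 and 0.181 and the passaged libraries 2.48 to 3.61. The ratio was looked at after the levels had been seen and was not tested.

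**Figure D2:**
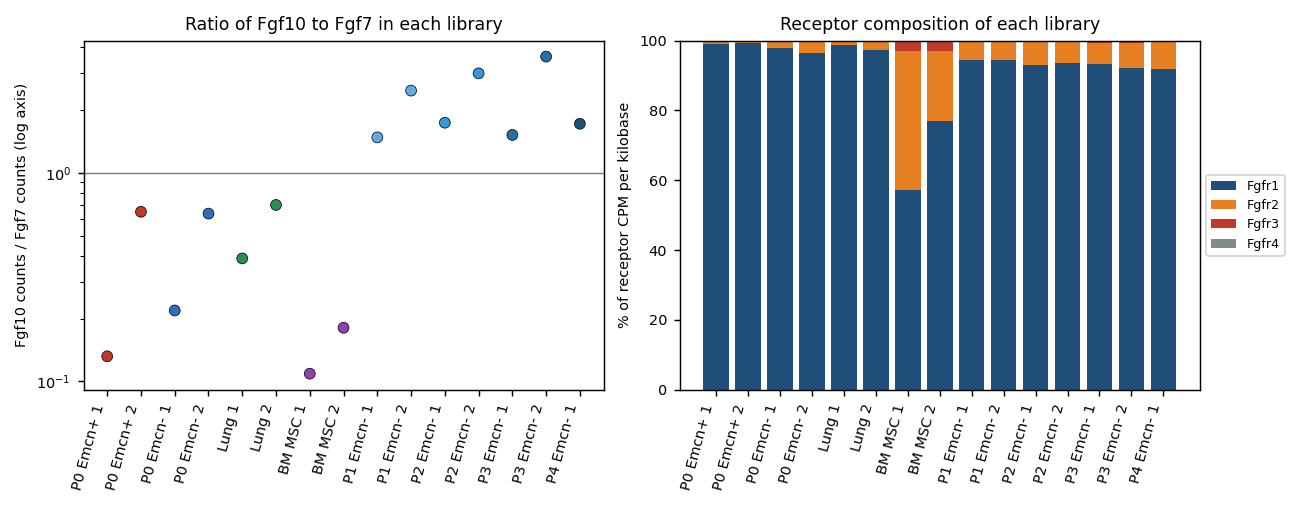
Left, Fgf10 counts divided by Fgf7 counts in each library on a log axis, with a line at equal counts. Right, the share of each receptor in the summed receptor CPM per kilobase, in percent. The 7 passaged libraries lie above the line and the other 8 below it, and Fgfr2 (orange) takes 40.0% and 19.9% in the BM MSC libraries.

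The comparison of P0 Emcn+ with P0 Emcn- asks how the Emcn fractions of one marrow culture differ. A gene was called at an edgeR adjusted p under 0.05 over all 19401 genes tested and an absolute log2 fold change above 1.5. Of the 8 members tested, 6 were lower in P0 Emcn+ and none was called higher, while 11.4% of all genes tested were called lower and 7.79% higher. Among the ligands, Fgf10 fell by 6.12 on the log2 scale (SE 1.01, adjusted p = 0.00109), Fgf7 by 5.88 (SE 0.354, adjusted p = 2.63e-06), Fgf18 by 5.21 (SE 0.557, adjusted p = 7.46e-05) and Fgf2 by 4.66 (SE 0.46, adjusted p = 4.55e-05). The receptors Fgfr2 and Fgfr3 fell by 3.16 (SE 0.603, adjusted p = 0.00255) and 2.15 (SE 0.386, adjusted p = 0.00179). Fgfr1 had a log2 fold change of -1.07 (SE 0.171, adjusted p = 0.000922), which is under the fold limit. Fgf1 did not pass, at 1.25 with a 95% interval of -0.53 to 3.03.

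The same direction stood in both batches. In batch d the log2 ratios of P0 Emcn+ to P0 Emcn- were -4.39 for Fgf2, -5.47 for Fgf7, -5.85 for Fgf10 and -5.00 for Fgf18. In batch a they were -4.74, -6.05, -6.00 and -4.73 in the same order. Fgfr2 read -2.26 in batch d and -4.07 in batch a. The summed mesenchymal markers moved with the ligands, 235 and 313 CPM against 16300 and 21400, the macrophage sum moved the other way, 542 and 548 against 189 and 228, and the part of either in these differences was not tested. Fgfr3 was not called when only these 4 libraries were fitted (adjusted p = 0.0508). The Fgf10 value depended on single libraries and was -4.36 with only replicate 1 of P0 Emcn-, -6.91 with only its replicate 2, -7.98 with only replicate 1 of P0 Emcn+, and -5.24 with only its replicate 2. Fgf7 read -5.29 without P0 Emcn- replicate 2 and Fgf18 -5.91 without P0 Emcn+ replicate 2.

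**Figure D3:**
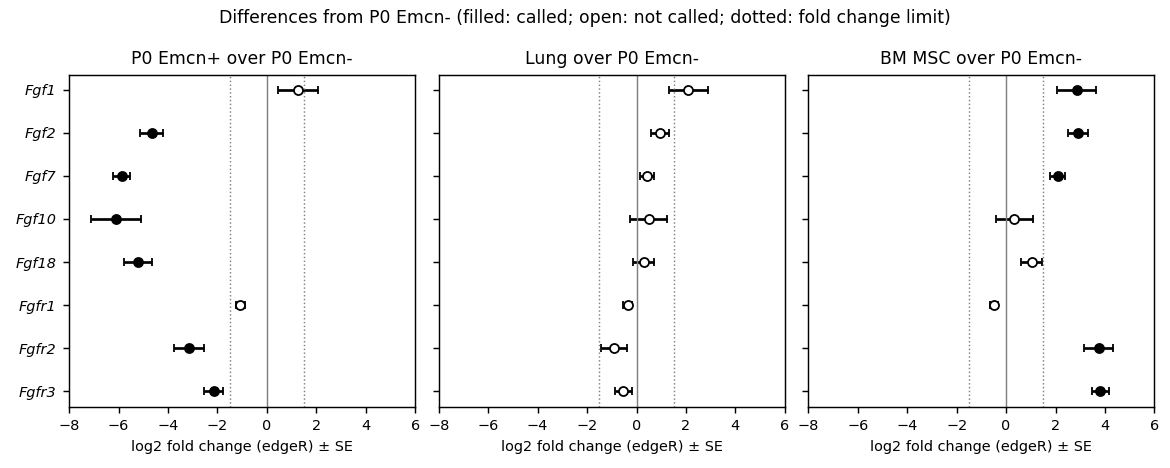
Log2 fold changes over P0 Emcn- with their standard errors for P0 Emcn+, Lung and BM MSC, where filled points are called and the dotted lines mark the fold limit. In P0 Emcn+ 6 members are called lower, in Lung none is called, and in BM MSC 5 are called higher.

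Between Lung and P0 Emcn- the comparison asks about the organ of origin, within batches a and d. No member was called, 2 had an unadjusted p under 0.05 in edgeR and DESeq2 also called 0, beside 2.13% of all genes called higher and 1.7% lower. Those with an unadjusted p under the limit were Fgf1 (2.09, adjusted p = 0.185) and Fgf2 (0.96, adjusted p = 0.202). The 95% intervals of the log2 difference were 0.35 to 3.83 for Fgf1, 0.13 to 1.79 for Fgf2, -0.19 to 1.03 for Fgf7, -1.17 to 2.17 for Fgf10 and -0.64 to 1.22 for Fgf18. For the receptors they were -0.74 to 0.02 for Fgfr1, -2.12 to 0.30 for Fgfr2 and -1.32 to 0.24 for Fgfr3. Within batch d Fgf7 and Fgf10 were higher in Lung by log2 ratios of 1.19 and 2.01, and within batch a they read -0.22 and -0.08. Marker RNA also differed between these conditions. Macrophage genes summed to 22.4 and 20.7 CPM in Lung against 189 and 228. Emcn was at 32.6 and 125 CPM against 12.7 and 2.52, and mean Vwf was 111 against 3.41. The part of these genes in the comparison was not tested.

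In BM MSC against P0 Emcn-, 5 members were called higher and 0 lower, with 11.3% of all genes called higher and 7.45% lower. Fgfr3 was higher by 3.81 on the log2 scale (SE 0.35, adjusted p = 5.54e-05) and Fgfr2 by 3.75 (SE 0.58, adjusted p = 0.00109). Among the ligands, Fgf2 was higher by 2.90 (SE 0.394, adjusted p = 0.000546), Fgf1 by 2.85 (SE 0.777, adjusted p = 0.0177) and Fgf7 by 2.08 (SE 0.286, adjusted p = 0.000577). This comparison and those of the passages use the same P0 Emcn- libraries as the comparison of the P0 fractions. Not called were Fgf18 at 1.03 (95% interval 0.09 to 1.97), Fgf10 at 0.32 (-1.35 to 1.99) and Fgfr1 at -0.49 (-0.87 to -0.11). The Fgf1 call was lost without BM MSC replicate 2 (adjusted p = 0.0631) and without either P0 Emcn- library (0.0612 for replicate 1, 0.0704 for replicate 2). Fgf2 read 2.14 without BM MSC replicate 2 and Fgfr2 read 2.83 without BM MSC replicate 1. The mural marker sum was also higher in BM MSC, 960 and 1190 CPM against 156 and 103, mostly through Acta2 (means 912 and 75.7). Cspg4 was higher too (means 117 and 46.0), and Des was lower (2.07 and 4.01). Rgs5 was at 1.32 to 38.1 CPM in BM MSC against 0.579 to 2.12, and Myh11 at 2.22 to 41.1 against 1.91 to 2.92. The part of these genes in the result was not tested.

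BM MSC share batch c with replicate 2 of P1 to P3, and against the mean of P1 to P3 5 members were again higher and 0 lower, beside 8.42% and 5.81% of all genes. Fgfr3 differed by 3.81 (SE 0.229, adjusted p = 7.2e-06) and Fgfr2 by 2.89 (SE 0.382, adjusted p = 0.000452). Fgf7 differed by 2.89 (SE 0.204, adjusted p = 1.51e-05), Fgf18 by 1.74 (SE 0.313, adjusted p = 0.00243) and Fgf1 by 1.71 (SE 0.516, adjusted p = 0.029). Fgf2 differed by 1.01 (adjusted p = 0.0207), under the fold limit, and read 1.5, called, without BM MSC replicate 1 and 0.27 without BM MSC replicate 2. Fgf10 read -1.08 with a 95% interval of -2.52 to 0.36 and Fgfr1 read 0.01 (-0.30 to 0.32). Within batch c the log2 ratios of the BM MSC libraries to P1 were 2.66 and 2.66 for Fgf7, 3.52 and 2.05 for Fgfr2, 4.66 and 4.24 for Fgfr3 and -1.84 and -1.11 for Fgf10. Without BM MSC replicate 2 the calls of Fgf18 (1.19, adjusted p = 0.0568) and Fgf1 (1.48, adjusted p = 0.177) were lost. The Fgf1 call was also lost with DESeq2 and ashr shrinkage (1.04), without BM MSC replicate 1 (0.0763) and without replicate 2 of P1 (0.0605), P2 (a value of 1.49) or P3 (0.0619). Fgfr2 read 1.97 without BM MSC replicate 1.

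Passaging was compared with P0 Emcn- at each passage. At P1 no member was called, 2 had an unadjusted p under 0.05 and DESeq2 called 0, with 5.77% of all genes higher and 3.07% lower. Fgf2 was called from P2 on, with 2.05 at P2 (SE 0.382, adjusted p = 0.00507), 2.51 at P3 (SE 0.388, adjusted p = 0.00161) and 2.66 at P4 (SE 0.434, adjusted p = 0.00327). It was the only call at P2 and P3, where 7.49% and 8.03% of all genes were higher and 4.52% and 5.16% lower. At P4, where the single library was assumed to vary like the other conditions and 6.74% of genes were higher and 2.94% lower, Fgf1 was called too (2.98, adjusted p = 0.042). The P4 call of Fgf1 was lost without any 1 of 10 libraries, with adjusted p of 0.0512 to 0.104. At P3 Fgf7 had a log2 fold change of -1.11 (adjusted p = 0.0177) and Fgfr1 of -0.57 (adjusted p = 0.0346), both under the fold limit. Fgf7 read -1.53 and was called without P0 Emcn- replicate 1. Marker sums also differed over these passages. The mesenchymal genes summed to 16300 and 21400 CPM in P0 Emcn- and to 4390 to 6770 at P1 to P4. Mean CPM at P0 Emcn- and P1 was 4340 and 558 for Col1a1, 5920 and 1720 for Col1a2 and 4470 and 745 for Col3a1. Pdgfrb (807 and 300) and Thy1 (164 and 104) were also lower at P1. Pdgfra was at 1360 and 1400, Dcn at 1790 and 1600 and Lum at 26.9 and 31.1. At P3 Pdgfra was at 701, Dcn at 514 and Thy1 at 219. The macrophage genes summed to 189 and 228 CPM in P0 Emcn-, 69.6 and 223 at P1 and 11.6 to 39.3 from P2 on. The part of these marker genes in the passage differences was not tested.

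With the replicate block, which removes the batch differences within the P0 and Lung set and within the passaged and BM MSC set, Fgf10 was called higher at P1 (1.90, adjusted p = 0.0259), P2 (1.81, 0.0246) and P3 (1.56, 0.0387). The block also gave a call of Fgf1 at P3 (1.89, adjusted p = 0.044) and removed that at P4 (2.23, 0.0614). The members called were then 1 at P1, 2 at P2, 3 at P3 and 1 at P4. Without the block Fgf10 read 1.5 at P1 with a 95% interval of -0.20 to 3.20. It read 3.24, 3.18, 3.00 and 2.79 at P1 to P4 without P0 Emcn- replicate 2, and was called at each. Without P0 Emcn- replicate 1 it read 0.70, 0.64, 0.45 and 0.24 at P1 to P4, with adjusted p of 0.558 to 0.867. Fgf2 was called at P1 without P0 Emcn- replicate 2 (1.52, adjusted p = 0.0385).

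P1 to P3 had a library in each of batches b and c and P4 in b alone, so a slope can take in differences between these batches. Over P1 to P4 alone, the slope of Fgf2 was 0.52 log2 units per passage (SE 0.134, adjusted p = 0.131) and that of Fgf1 0.96 (SE 0.261, adjusted p = 0.148). Neither was called, beside 0.129% of genes with a called rise above 0.5 per passage and 0.139% with a fall. These were the 2 members with an unadjusted p under 0.05. Fgf2 was higher at P3 than at P1 in both batches, by 1.55 in batch b and 1.30 in batch c. DESeq2 called 1 member, Fgf2 (0.53, adjusted p = 0.0193). The slopes of Fgf7 (-0.11), Fgf10 (-0.16), Fgf18 (-0.06), Fgfr1 (-0.07), Fgfr2 (0.11) and Fgfr3 (0.25) had 95% intervals that held 0. In the test of any difference over the 8 conditions, 8 of 8 members passed, as did 63.5% of all genes tested, and Fgf1 did not pass in 9 fits that left out 1 library (adjusted p of 0.0501 to 0.0824).

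**Figure D4:**
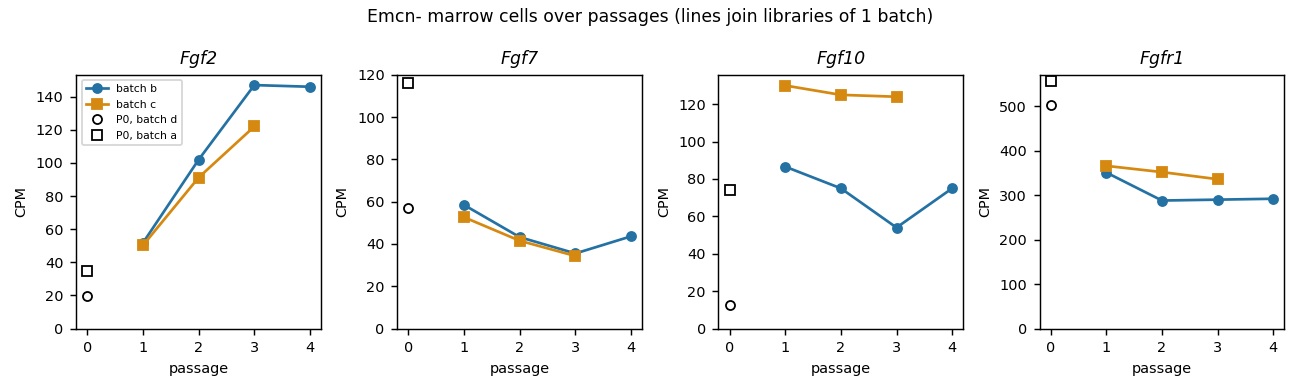
CPM of Fgf2, Fgf7, Fgf10 and Fgfr1 against passage, with lines joining the libraries of batch b (circles, P1 to P4) and batch c (squares, P1 to P3) and open symbols for the P0 Emcn- libraries of batches d and a. Fgf2 is higher at P3 than at P1 in both batches, and batch c lies above batch b for Fgf10 at every passage.

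The other genes of the pathway were counted by lists. Of 17 other genes of the FGF family 7 passed the filter on low counts. In P0 Emcn+ against P0 Emcn- 1 was higher and 1 lower, beside 7.79% and 11.4% of all genes tested, with a median log2 fold change of 0.17 against -0.06 over all genes. Fgf23, the hormone of phosphate balance made in bone, had 112 and 98 counts in P0 Emcn+ and 1 and 0 in P0 Emcn-. This is a 181-fold ratio of counts summed over each condition and scaled to its summed library totals. Its 95% counting interval was 32.2 to 7200 (edgeR 7.29, adjusted p = 0.001). Fgf14, one of the intracellular FGF homologous factors that act on sodium channels, had 0 and 5 counts against 17 and 13 (edgeR -3.03, adjusted p = 0.0399). Fgf11, Fgf12 and Fgf13 are also such factors and no secreted ligands. The Fgf14 call was lost without P0 Emcn+ replicate 1 (adjusted p = 0.153), without P0 Emcn- replicate 2 (0.17) and without any 1 of the P1 or P3 libraries (0.0554 to 0.0559). Of its relatives, Fgf12 had 4 and 18 counts in P0 Emcn+ and 0 in both P0 Emcn- libraries, at least 6.34-fold higher against 3 counts over the group, without a call (adjusted p = 0.0715). The log2 fold changes of Fgf11 (-0.61), Fgf13 (0.17), Fgf17 (0.16) and Fgf9 (0.43) did not pass.

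BM MSC had 5 of these 7 FGF family genes higher than P0 Emcn- and 0 lower, beside 11.3% and 7.45% of all genes tested. The median log2 fold change of the 7 was 4.38 against 0.01 over all genes. Fgf9 passed the filter on low counts only through BM MSC, with at most 6 counts in any other library. Fgf12 passed only through BM MSC replicate 2 and P0 Emcn+ replicate 2. The 7 were thus selected in part for being high in BM MSC, so this count and median are no result about the list. Of the 5 called, Fgf9 and Fgf23 encode secreted ligands, and Fgf11, Fgf12 and Fgf13 intracellular homologous factors. Fgf9, a ligand of skeletal and lung mesenchyme, had 57 and 165 counts against 2 and 0, an 80.4-fold ratio with a counting interval of 22.0 to 668. Fgf13 was higher by 4.38 (SE 0.656, adjusted p = 0.000914) and Fgf11 by 2.22 (SE 0.545, adjusted p = 0.011). The Fgf11 call was lost without BM MSC replicate 2 (1.19, adjusted p = 0.101) and without P0 Emcn- replicate 1 (0.0578). Fgf23 had 7 and 25 counts in BM MSC, a 23.2-fold ratio with an interval of 3.87 to 944, and it was not called with the replicate block (adjusted p = 0.988), without BM MSC replicate 2 (0.069) or without P0 Emcn- replicate 1 (0.0965). Fgf12 had 4 and 35 counts, at least 9.42-fold higher against 3 counts over the group, and its call was lost with the replicate block (0.148), with DESeq2 and ashr shrinkage (0.0686) and in 11 fits that left out 1 library (0.0503 to 0.222). At passages Fgf13 was called higher than in P0 Emcn- at P2 (2.59, adjusted p = 0.019), P3 (2.68, 0.0154) and P4 (2.74, 0.0302), and these calls were lost in 3, 2 and 2 fits that left out 1 library (0.0598 to 0.141). In Lung only Fgf11 was called among them (2.18, adjusted p = 0.0482), at 4.86 and 9.68 CPM against 1.71 and 1.61, and this call was lost with the replicate block (0.0725) and in 12 fits that left out 1 library (0.0574 to 0.186).

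Co-receptors and binding proteins gave 2 higher and 4 lower of 10 tested in P0 Emcn+ (median -0.39), where 7.79% of all genes were higher and 11.4% lower. Klb, the co-receptor of endocrine FGFs, had 0 and 1 counts against 41 and 4, a 52.1-fold ratio with an interval of 8.88 to 2100. Klb was no longer called when replicate 1 of P0 Emcn- (adjusted p = 0.0582) or of P0 Emcn+ (0.0503) was left out. Gpc1, a cell surface heparan sulfate proteoglycan, fell by 3.74 (adjusted p = 0.000544) and read -2.63 when P0 Emcn- replicate 1 was left out and -4.34 when its replicate 2 was. Fgfrl1, a receptor-like protein without a kinase domain, was at 6.78 and 8.46 CPM against 41.0 and 99.8, a log2 fold change of -3.17 (adjusted p = 7.18e-05) that was -2.39 without P0 Emcn- replicate 2. Hspg2, the basement membrane proteoglycan perlecan, rose by 2.42 (adjusted p = 0.000498) from 1810 and 1110 to 8380 and 6930 CPM. The adhesion protein gene Cdh2 fell by 2.56 (adjusted p = 2.73e-05). Flrt3, a membrane protein that binds FGF receptors, rose by 2.35 (adjusted p = 0.00155).

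Among 11 genes of heparan sulfate synthesis and editing, 1 was higher and 1 lower in P0 Emcn+ (median -0.41). These counts, and those of 1 gene in each of the following 3 lists, stand beside 7.79% of all genes higher and 11.4% lower, so they are near that share and are no result about the lists. Sulf1, which removes 6-O sulfates from the chains, fell by 3.32 (adjusted p = 1.24e-05), from 140 and 134 to 9.86 and 17.0 CPM. Ndst1, which starts chain sulfation, rose by 1.84 (adjusted p = 6.29e-05). Adaptors gave 1 higher of 9 (median 0.13), the phospholipase Plcg1 (1.58, adjusted p = 3.95e-05), which fell under the fold limit when P0 Emcn- replicate 2 (1.49) or P0 Emcn+ replicate 1 (1.43) was left out. Feedback inhibitors gave 1 higher of 8 (median -0.19), the ERK phosphatase Dusp6, at 278 and 123 CPM against 32.1 and 33.5 (2.65, adjusted p = 0.00348). Without P0 Emcn+ replicate 1 Dusp6 read 1.96. ERK response genes gave 1 higher of 11 (median -0.43), the Ets factor Etv4 (1.95, adjusted p = 0.00666).

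**Figure D5:**
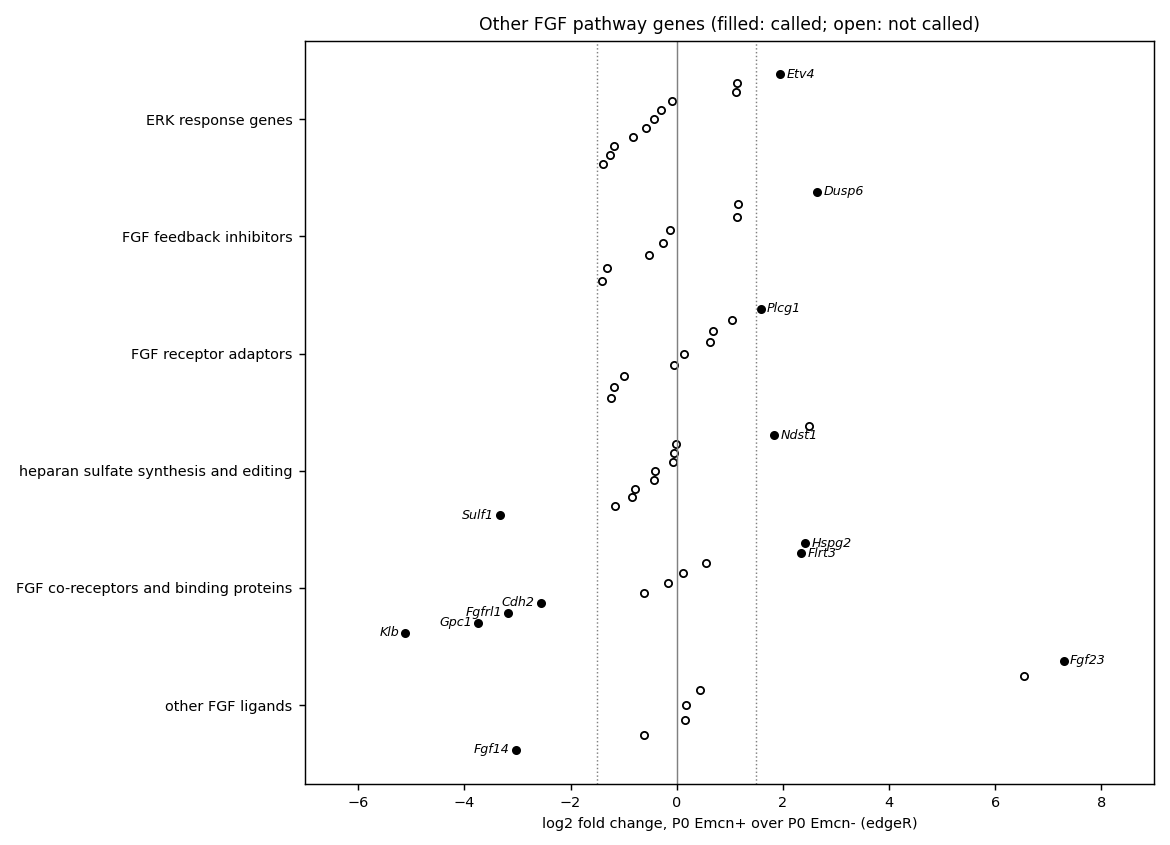
Log2 fold changes of the other pathway genes in P0 Emcn+ over P0 Emcn-, 1 row per list, with filled and named points for called genes and dotted lines at the fold limit. Fgf23, Hspg2, Flrt3, Ndst1, Plcg1, Dusp6 and Etv4 are called higher, and Klb, Gpc1, Fgfrl1, Cdh2, Sulf1 and Fgf14 lower.

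In Lung against P0 Emcn-, 1 co-receptor of 10, 1 heparan sulfate gene of 11 and 1 feedback inhibitor of 8 were called, and 0 of 9 adaptors and 0 of 11 ERK response genes, beside 2.13% of all genes higher and 1.7% lower. Cdh2, the N-cadherin that binds FGFR1, rose by 2.04 (adjusted p = 0.00164) from 52.0 and 71.7 to 193 and 294 CPM. The 6-O-sulfotransferase Hs6st2 rose by 3.57 (adjusted p = 0.00869), from 2.34 and 2.12 to 22.8 and 28.5 CPM, and reached 455 and 409 CPM in BM MSC. Its call in Lung was lost without P0 Emcn- replicate 1 (0.0571). Il17rd, an inhibitor of FGF signalling, fell by 1.57 (adjusted p = 0.0217), a call lost without P0 Emcn- replicate 2 (0.0764) and without Lung replicate 1 (0.142), and under the fold limit with DESeq2 and ashr shrinkage (-1.45). Il17rd, Cdh2 and Fgf11 were not called when only the Lung and P0 Emcn- libraries were fitted.

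At P1 against P0 Emcn-, ERK response genes gave 1 higher and 4 lower of 11 (median -0.78 against 0.02 over all genes tested), co-receptors 2 higher and 1 lower of 10, feedback inhibitors 1 lower of 8, and the remaining lists 0, beside 5.77% of all genes higher and 3.07% lower. For the ERK response genes the counts were 2 higher and 3 lower at P2 and at P3 (medians -0.85 and -0.53), and 2 higher and 0 lower in the P4 library (median 0.09). The immediate early gene Egr1 fell by 3.83 (adjusted p = 0.00227), from 437 and 1040 to 48.1 and 44.5 CPM, and read -3.10 without P0 Emcn- replicate 2. Egr1 was at 16.0 and 16.6 CPM at P3 and at 530 in the P4 library. Ier3, another early gene, fell by 2.43 (adjusted p = 0.00478), Dusp5, a nuclear ERK phosphatase, by 1.67 (adjusted p = 0.0152) and Etv4 by 1.64 (adjusted p = 0.0345). Etv1, an Ets factor, rose by 2.05 (adjusted p = 0.000967) from 10.5 and 15.3 to 50.8 and 43.9 CPM. Spry1, a Sprouty inhibitor, fell by 2.14 (adjusted p = 0.0201), and the membrane proteins Flrt2 and Flrt3 rose by 1.70 (adjusted p = 0.0172) and 1.63 (adjusted p = 0.0233). Gpc1 fell by 1.67 (adjusted p = 0.0465) and read -0.58 without P0 Emcn- replicate 1. The Etv4 call was lost in 6 fits that left out 1 library (adjusted p of 0.0511 to 0.21), and that of Gpc1 in 9 (0.0581 to 0.432). Leaving out P1 replicate 1 also removed the calls of Dusp5 (0.0956), Ier3 (0.0552), Spry1 (0.129), Flrt2 (0.0609) and Flrt3 (0.101). Leaving out P1 replicate 2 removed those of Dusp5 (0.0819), Spry1 (0.0873), Flrt2 (0.0754) and Flrt3 (0.0735). Without P0 Emcn- replicate 2 the calls of Spry1 (0.0603) and Dusp5 (a value of -0.99) were lost, and without P0 Emcn- replicate 1 those of Flrt2 (0.117) and Flrt3 (0.157). With DESeq2 and ashr shrinkage Gpc1 (-1.16), Flrt2 (1.46), Flrt3 (1.31), Etv4 (-1.15) and Dusp5 (-1.4) were under the fold limit at P1, and Dusp5 also at P3 (-1.2). The calls of Egr1 and Etv1 held in each fit that left out 1 library.

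Over P1 to P4, 1 of 8 feedback inhibitors, 1 of 11 ERK response genes and 0 of the 7, 10, 11 and 9 genes tested in the other lists had a called slope, beside 0.129% of all genes rising and 0.139% falling. Both rose, and they were named after their values were seen. The P4 library was batch b, and the batch b library was the higher at P2 and at P3 for both genes. Spry4, a Sprouty inhibitor, rose by 0.89 per passage (adjusted p = 0.0394), with 12.3 and 14.9 CPM at P1, 45.3 and 29.1 at P3 and 86.1 at P4. Ccnd1, cyclin D1, rose by 0.91 per passage (adjusted p = 0.0394), from 365 and 322 CPM at P1 to 2370 and 1440 at P3 and 2120 at P4. The Spry4 call was lost with the replicate block (0.0557) and in 9 fits that left out 1 library (0.0508 to 0.213), and that of Ccnd1 in 6 (0.05 to 0.242).

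The genes with patterns most like each member were named by Pearson r of log2(CPM + 1) over the 8 condition means. These are descriptions over 8 points that share libraries, and each member's r above 0.95 was reached by 1 to 322 genes. Over the 15 libraries the named genes had r of 0.800 to 0.984 and ranked from 1 to 93 in likeness. Fgf2 was followed most closely by Ndrg4 (r = 0.993), Fas (0.992) and Map6 (0.992), and Fgf7 by Ism1 (0.995), Sod3 (0.994) and the heparan sulfate proteoglycan Sdc4 (0.988). For Fgf10 they were Smad9 (0.998), Magi2 (0.997) and Pdlim2 (0.994), and for Fgf18 Pdzrn3 (0.993), the Wnt receptor Fzd1 (0.987) and Fgf7 itself (0.987). Fgfr1 was closest to Carm1 (0.992), Gm2564 (0.982) and Ppid (0.976), Fgfr2 to Tiam2 (0.994), Maneal (0.992) and Pm20d2 (0.991), and Fgfr3 to Lctl (0.995), Grhl1 (0.992) and Syt5 (0.991). Fgf1 was closest to an unnamed gene with r = 0.971, Oxtr (0.937) and Strn3 (0.929). Of these, Oxtr, Maneal, Pm20d2, Lctl, Grhl1 and Syt5 had condition means of at most 4.88 CPM.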

How the data were processed

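RNA-seq was analysed for 15 libraries of 8 conditions, grouped by GEO's labels. The authors ran the nf-core RNASeq pipeline, which trimmed reads, mapped them with STAR (build GRCm38), estimated transcripts with Salmon and merged them per gene with tximport. The deposited values are whole-number counts for 44674 genes, 8 of them without a symbol, and how the estimates were rounded is not given in the sources used here. Totals ran from 9914620 counts in P0 Emcn- replicate 2 to 39718807 in P0 Emcn- replicate 1, so 3 counts are 0.0755 to 0.303 CPM. The pair that most comparisons use as reference was thus the most unequal in depth. Fold ratios with counting intervals used counts and totals summed over the libraries of a condition, so they are not ratios of mean CPM. The counting intervals of fold ratios and the floors cover counting error only. By the methods replicates were separate cultures, and those of a condition differed by far more than sampling noise (chi-square per degree of freedom 42.48 to 140.5).

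CPM were computed on library totals and, for levels between genes, divided by union exon length in GENCODE M21. Genes that passed filterByExpr (minimum count 10, minimum total 15), 19401 in all, were fitted over all 15 libraries with edgeR 4.0.16 (TMM, 1 coefficient per condition, quasi-likelihood test, R 4.3.3). Calls needed a Benjamini-Hochberg adjusted p under 0.05 over all genes tested and an absolute log2 fold change above 1.5 or a slope above 0.5 per passage. The study set the limit of 1.5 on fold changes shrunken with ashr, whereas here it is set on edgeR's unshrunken values, and the calls of genes described that end under ashr are given beside them. The 95% intervals of log2 differences and slopes used edgeR's standard errors with 7 residual and 3.07 prior degrees of freedom. These intervals therefore include the spread between replicates. The procedure was also run on simulated counts with the same spread for all genes and no batch differences. These settings differ from the libraries here, so that run does not measure the error of the calls. DESeq2 1.42.0 with and without ashr 2.2.63, other filters and scalings, single libraries left out and a replicate block were alternatives. The block held 2 batch terms, a against d and b against c. Deviations of same-numbered libraries from their condition means correlated at 0.139 to 0.209 among P0 and Lung pairs and 0.354 to 0.451 among passaged pairs, and the labels give these pairs a shared batch.

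The members and lists were chosen with earlier results of these data known. Named were all members, all other listed FGF family genes that passed the filter, the 3 genes most like each member, and marker genes. Added were up to 3 genes per direction and pathway list with the largest called change in P0 Emcn+, Lung or P1 over P0 Emcn-. Promoter sequences are RefSeq's for GRCm38.p6.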

Additional observations from a re-analysis of the deposited data

How the results depend on the processing

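All 9 comparisons with a fold limit and the test over the 8 conditions were refitted under each alternative, and 202 of 224 counts of called members stayed within 1.5 times the value given. With the replicate block, the members called were 1 at P1, 2 at P2, 3 at P3 and 1 at P4. The slope over P1 to P4 gave 1 called member with DESeq2, with no filter on low counts and with the compared groups alone. Without the fold limit, P3 gave 3. Leaving out single libraries gave 0 to 2 at P1, 1 to 2 at P2, P3 and P4, 3 to 5 for BM MSC over P1 to P3, 4 to 5 for BM MSC over P0 Emcn- and 7 to 8 for any difference. Directions that turned were all of uncalled values, and their ranges over the fits without 1 library were as follows. Over P0 Emcn-, Fgf10 read -0.29 to 2.26 in Lung and -0.49 to 2.05 in BM MSC (-0.10 without BM MSC replicate 2), Fgf18 -0.01 to 0.64 in Lung, Fgf1 -1.32 to 0.92 at P1 (0.57 without P1 replicate 2), Fgf7 -0.91 to 0.09 at P1 and Fgfr3 -0.42 to 0.16 at P2 and -0.25 to 0.33 at P4. Most extremes came from leaving out a P0 Emcn- library. Fgfr1 in BM MSC over P1 to P3 read -0.03 to 0.05 (-0.01 without P3 replicate 1), and -0.06 with the replicate block. The block changed no other call of a member than those given. Over all genes, the compared groups alone gave 145 calls against 743 in Lung, 968 against 1715 at P1, 1523 against 2330 at P2, 1704 against 2559 at P3 and 2396 against 3630 in BM MSC. The slope gave 52 calls, and 205 with no filter, 290 with the compared groups alone and 347 with DESeq2, and it gave 5 to 75 when 1 library was left out, with 5 without either P2 library. The cause of these changes was not tested. With 2 libraries a condition and 3 counts as the floor, Fgf1, Fgfr3 and Fgfr4 are measured with the least precision.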
